A study of Mus musculus with 32 samples.

Results

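The cytochrome P450 genes were taken as all protein-coding genes whose symbol is Cyp followed by a digit, and 100 of the 54446 genes in the tables met this rule. They were measured by RNA sequencing of 32 bulk tumours from BALB/c mice bearing BNL-MEA, a mouse liver cancer line implanted under the liver capsule and labelled as hepatocellular carcinoma tissue. In the dose experiment, mice received vehicle (n = 4), regorafenib at 5 mg/kg/day (the low dose, n = 3) or regorafenib at 20 mg/kg/day (the high dose, n = 3). In the DC-101 experiment they received vehicle (n = 4), low-dose regorafenib (n = 3) or 800 µg of DC-101, an antibody to the receptor VEGFR2, into the peritoneum on days 1, 3 and 5 (n = 3). In the anti-PD1 experiment they received vehicle, the low dose, anti-PD1 antibody, or regorafenib at 5 mg with anti-PD1 (the combination), with n = 3 in each. Regorafenib is an oral kinase inhibitor, and all mice, controls included, carried the same implanted line, so the samples represent 1 tumour line in 1 strain. The sex and age of the tumour-bearing mice were not given in the sources used here.

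P450 enzymes are haem proteins that use electrons from P450 reductase, or from adrenodoxin in mitochondria, to insert oxygen into drugs, fatty acids, sterols, steroid hormones and vitamins A and D. Hepatocytes hold the largest repertoire, under control of nuclear receptors such as Nr1i2 (PXR), Nr1i3 (CAR) and Ppara and of factors such as Hnf4a, and dedifferentiated liver tumours are known to lose much of it. Some members, such as Cyp51 of cholesterol synthesis and the retinoic acid hydroxylase Cyp26b1, are also used by other cells.

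Library totals ran from 16767130 to 27693689 counts. P450 genes took between 0.0277% of the counts, in DC-101 replicate 1, and 2.09%, in high dose replicate 1, and 48 to 82 of the 100 genes had a count in a library. Of the 100 genes, 62 passed the filter on low counts in at least 1 experiment and 33 had a count in every library. The other 38 never passed, and 5 of them (Cyp11b1, Cyp19a1, Cyp2b23, Cyp2j11 and Cyp2j7) had no count anywhere. Cyp1a1, the classical target of the aryl hydrocarbon receptor, reached at most 14 counts in a library, Cyp11a1, which starts steroid synthesis, 13, and Cyp24a1, which degrades vitamin D, 2.

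Albumin (Alb), a transcript of hepatocytes, varied widely among tumours of the same group. For Alb and the P450 genes, CPM are counts scaled to the size of the library multiplied by its TMM scaling factor. This factor ran from 0.678, in high dose replicate 1, to 1.1. In CPM, Alb was at 635, 1530, 1400 and 2230 in vehicle, 1220, 1030 and 10800 at the low dose and 27900, 7040 and 1670 at the high dose of the dose experiment. Beside DC-101 it was 13.5, 335, 2660 and 11 in vehicle, 3260, 546 and 7460 at the low dose and 23.1, 11800 and 9660 with DC-101. In the anti-PD1 experiment it was 5920, 5360 and 6100 in vehicle, 1390, 2100 and 383 at the low dose, 280, 690 and 1490 with anti-PD1 and 5240, 1630 and 1900 in the combination. DC-101 replicate 1 and vehicle replicates 1 and 4 of the DC-101 experiment thus held almost none of the transcript, and high dose replicate 1 the most. A list of 22 hepatocyte genes without any P450 gene spanned mean levels of 0.26 to 11.81 log2 CPM across the same tumours. In bulk samples, fewer hepatocytes and less RNA per hepatocyte cannot be told apart.

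To separate P450 genes that varied with albumin from those that did not, each gene's deviations from its group mean were compared with those of Alb over the 32 libraries. Of 62 genes, 31 followed Alb (Pearson r of 0.7 or more), 12 did not follow it (r under 0.3) and 19 lay between. These r are descriptions over libraries that share a tissue and a depth range, and no p was computed. The genes closest to Alb were Cyp2d26 (r = 0.96), Cyp2c70, Cyp2d10 and Cyp2d9 (0.95 each), and Cyp3a11 (0.94), the main CYP3A drug-metabolising enzyme of mouse liver. Their slopes on Alb were 0.89 to 0.98 on the log2 scale, so they changed almost in proportion to it. At the other end stood Cyp4f16 (r = -0.32), Cyp27b1 (-0.27), which makes active vitamin D, Cyp46a1 (-0.21), Cyp2c55 (-0.10) and Cyp4f18 (-0.09). Just inside and just outside the threshold for following were Cyp17a1 and Cyp3a44, at 0.71, and Cyp27a1 and Cyp2j9, at 0.69. Cyp26a1 (0.31) and Cyp1b1 (0.22) lay on either side of the lower threshold.

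**Figure D1:**
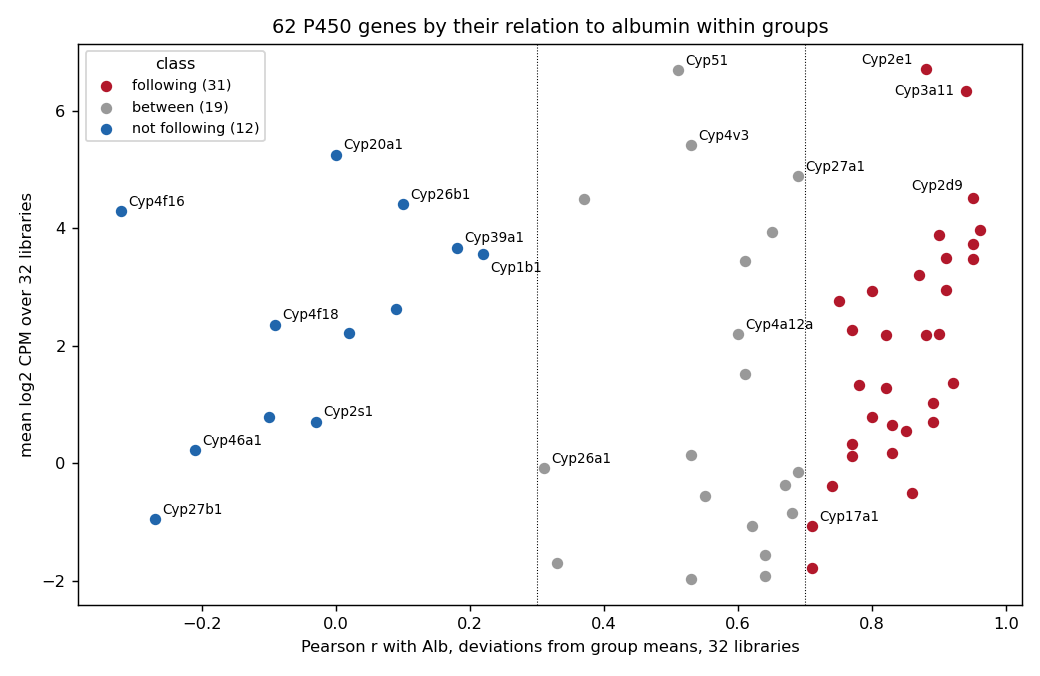
Each point is 1 of 62 P450 genes, placed by its Pearson r with Alb within groups (x axis) and its mean log2 CPM over 32 libraries (y axis), with dotted lines at 0.3 and 0.7. The 31 following genes spread over a wide range of levels on the right, while Cyp20a1, Cyp26b1, Cyp4f16, Cyp39a1 and Cyp1b1 are the highest of the 12 genes on the left.

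By role, the classes were spread unevenly in number. Among families 1 to 3, which hold most enzymes of drug and toxin metabolism, 23 of 35 classed genes followed Alb, 8 lay between and 4 did not follow. In family 4, of fatty acid and eicosanoid hydroxylases, the counts were 5, 5 and 3 of 13. Of the 7 sterol and bile acid genes, Cyp7b1 and Cyp8b1 followed Alb, Cyp7a1, Cyp27a1 and Cyp51 lay between, and Cyp39a1 and Cyp46a1 did not follow. No gene of vitamin A or D metabolism followed it: Cyp2r1 and Cyp26a1 lay between, and Cyp26b1 and Cyp27b1 did not follow. This split depends on the marker. With the hepatocyte list in place of Alb, Cyp2r1 (r = 0.72), Cyp7a1 (0.80) and Cyp27a1 (0.78) also followed, and Cyp17a1 (0.60) no longer did. Near-identical members of the Cyp2a, Cyp2b, Cyp2c, Cyp2d, Cyp3a and Cyp4a clusters share sequence, so the split of reads among them is uncertain.

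The dominant liver enzymes spanned orders of magnitude. Cyp2e1, which oxidises ethanol and paracetamol, averaged 696 CPM and ran from 0.57 CPM in vehicle replicate 1 of the DC-101 experiment to 12100 CPM in high dose replicate 1. Cyp3a11 ran from 0.395 to 4050 CPM and Cyp2d9 from 0.0439 to 2370 CPM, with the lowest value of each in the same vehicle tumour. Cyp1a2, which metabolises caffeine, ran from 0.0392 to 336 CPM, the fatty acid hydroxylase Cyp4a14 from 0 to 19.9 CPM, and Cyp8b1, which sets the cholic acid share of bile acids, from 0 to 931 CPM. Several other members kept to a narrow range: Cyp20a1, a P450 of unknown substrate, ran from 21.8 to 69.6 CPM and Cyp4f16 from 9.79 to 28.2 CPM. Cyp51, the demethylase of cholesterol synthesis, ran from 38.5 to 238 CPM (r = 0.51, slope 0.11), and Cyp4v3, a fatty acid hydroxylase with broad tissue distribution, from 26.7 to 321 CPM (r = 0.53, slope 0.14).

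**Figure D2:**
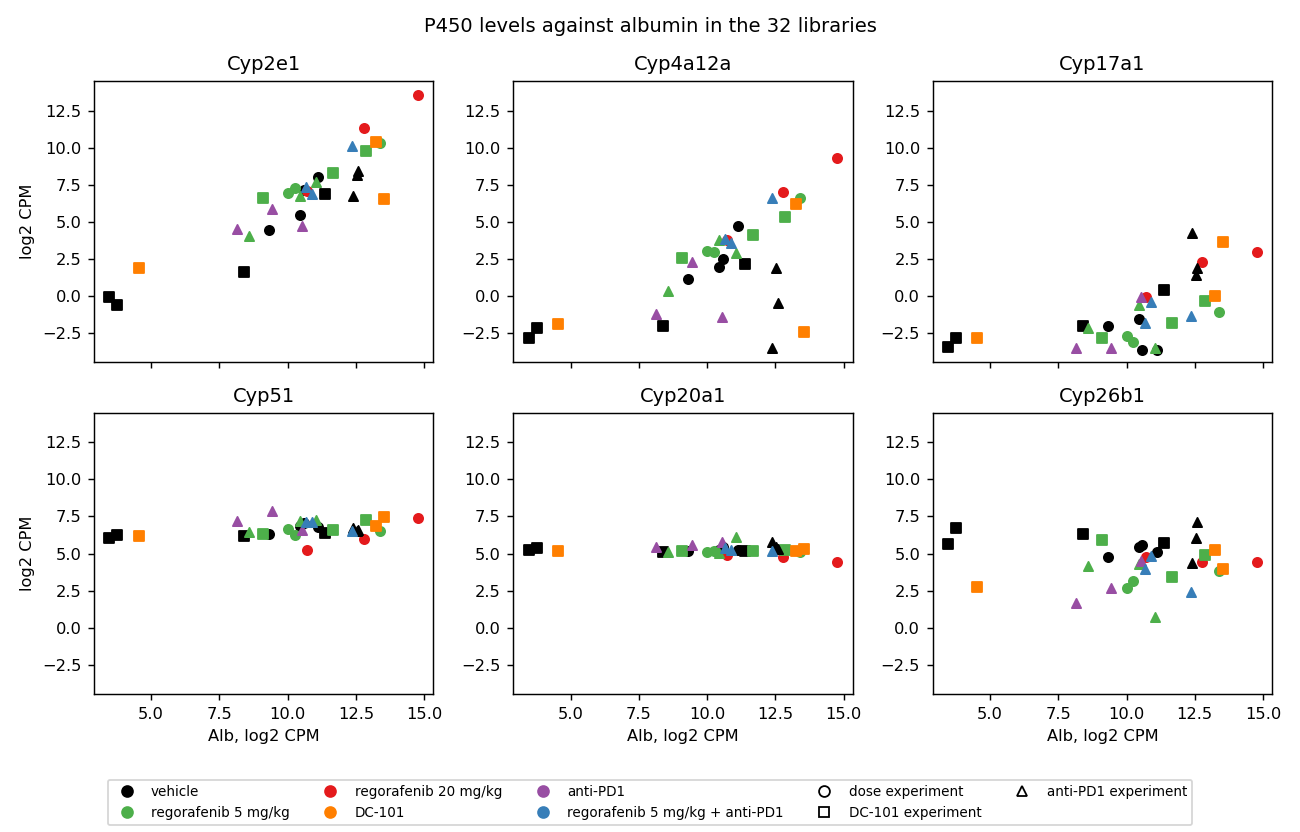
Each panel plots log2 CPM of 1 P450 gene (y axis) against log2 CPM of Alb (x axis) in the 32 libraries, coloured by treatment and shaped by experiment; values were scaled within each experiment. Cyp2e1 climbed with Alb, Cyp51 and Cyp20a1 stayed in a narrow band, and several Alb-rich tumours held little Cyp4a12a.

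The make-up of P450 transcripts differed between the tumours with the least and the most albumin. In the tumour with the least Alb, vehicle replicate 4 of the DC-101 experiment, the highest levels per kb of exon were those of Cyp20a1 (16.4 CPM per kb), Cyp51 (15.3), Cyp4v3 (9.57), Cyp26b1 (9.33), the mitochondrial sterol hydroxylase Cyp27a1 (8.36), Cyp39a1 (8.04) and Cyp4f16 (6.90). In the tumour with the most Alb, high dose replicate 1, they were Cyp2e1 (5590 CPM per kb), Cyp2d9 (890), Cyp3a11 (796), Cyp3a25 (527), Cyp2d10 (510) and Cyp8b1 (478). The 31 following genes made up 0.938% of the P450 CPM in the first and 88.4% in the second, a description only, since these genes were chosen for varying with Alb. The share did not follow the Alb level in every tumour, at 47.9% in vehicle replicate 2 (5360 CPM of Alb) and 83.4% in combination replicate 1 (5240 CPM) of the anti-PD1 experiment, and at 58.7% in low dose replicate 1 of the dose experiment (1220 CPM). The summed level of the 12 genes that did not follow Alb stayed between 95.7 and 350 CPM over all 32 tumours.

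Marker lists of other cells were set beside the 62 genes in the same way. Cyp26b1 varied most with the fibroblast list (r = 0.79), Cyp4f18, which inactivates the neutrophil attractant leukotriene B4, with the neutrophil list (0.73), Cyp4f16 with the proliferation list (0.67) and Cyp1b1, a P450 found mainly outside the liver, with the B cell list (0.63). With the fibroblast list Cyp1b1 was at 0.56. The B cell list was low, at -2.24 to 3.58 log2 CPM, and highest in high dose replicate 2, as was Cyp1b1 (115 CPM). Among the 31 following genes the list with the highest r besides hepatocytes was the Kupffer cell list for each, at 0.62 to 0.90. Which cells made any of these transcripts was not tested.

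Promoter windows bear on genes that moved together, and 48 of the 62 classed genes matched a window in RefSeq (build GRCm38.p6, from 250 bases before to 50 after the start). For each gene the first listed window within 1000 bases of a Gencode transcript start of the counted gene was used, which for Cyp2c39 was not the first in the table, and other genes are represented by their first window. For Cyp2c29 and Cyp2d9 this start lies far inside the counted gene. For some others, among them Cyp2s1, Cyp3a11 and Cyp26b1, it lies a shorter way inside. The windows of 25 following genes held a median of 2 CG pairs (0 to 5), those of 14 genes between 5.5 (0 to 28) and those of 9 genes that did not follow 9 (0 to 31), against 7 over all 27025 windows. The letters TATAAA, searched anywhere in the window on the gene's strand, stood in 10 of 25 following windows (40.0%), 3 of 14 (21.4%), 2 of 9 (22.2%) and 8.88% of all windows. The letters CAAAGTCCA, a form of the HNF4 motif searched on both strands, stood in 5 of 25 following windows (Cyp3a11, Cyp8b1, Cyp2c67, Cyp2c68 and Cyp2c70, 20.0%), in none of the others and in 0.477% of all windows. These motifs share no overlap in what was searched, and a match is a description only. The windows of 4 genes are shown, 5′ to 3′ on the gene's strand with CG pairs in capitals: 2 genes closest to Alb in their subfamilies, 1 that fell at the low dose and 1 that rose at the high dose. They lie at chr15:82794196-82794495 on the minus strand (Cyp2d26, 1 CG pair), chr5:145879805-145880104 on the minus strand (Cyp3a11, 2), chr6:84593761-84594060 on the minus strand (Cyp26b1, 9) and chr12:108334066-108334365 on the plus strand (Cyp46a1, 31).
Cyp2d26: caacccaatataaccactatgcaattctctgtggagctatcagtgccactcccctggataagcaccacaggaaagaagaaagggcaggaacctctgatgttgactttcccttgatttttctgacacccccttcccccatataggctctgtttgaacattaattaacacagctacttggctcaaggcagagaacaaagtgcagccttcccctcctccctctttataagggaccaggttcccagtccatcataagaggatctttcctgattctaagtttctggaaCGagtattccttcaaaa
Cyp3a11: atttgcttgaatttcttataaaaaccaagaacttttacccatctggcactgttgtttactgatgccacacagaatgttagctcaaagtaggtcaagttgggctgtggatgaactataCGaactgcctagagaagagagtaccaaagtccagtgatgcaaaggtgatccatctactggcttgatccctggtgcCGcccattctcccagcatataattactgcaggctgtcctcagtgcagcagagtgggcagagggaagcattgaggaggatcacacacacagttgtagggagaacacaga
Cyp26b1: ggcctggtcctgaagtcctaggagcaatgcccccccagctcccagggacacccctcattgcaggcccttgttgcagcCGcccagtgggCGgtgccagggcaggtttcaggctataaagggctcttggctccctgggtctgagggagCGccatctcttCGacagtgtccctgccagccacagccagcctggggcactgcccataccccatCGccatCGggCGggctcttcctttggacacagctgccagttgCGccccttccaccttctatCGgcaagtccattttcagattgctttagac
Cyp46a1: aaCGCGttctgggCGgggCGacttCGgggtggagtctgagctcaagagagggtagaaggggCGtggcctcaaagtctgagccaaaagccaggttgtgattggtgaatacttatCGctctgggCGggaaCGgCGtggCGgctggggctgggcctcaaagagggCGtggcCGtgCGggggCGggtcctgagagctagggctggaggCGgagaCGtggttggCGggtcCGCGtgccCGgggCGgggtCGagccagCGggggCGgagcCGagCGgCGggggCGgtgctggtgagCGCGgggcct

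Low-dose regorafenib was given in all 3 experiments, so 9 treated tumours were compared with 11 vehicle tumours with the experiment as a term. Of 55 P450 genes tested, 2 fell and none rose, against 1.77% of 15562 genes called in either direction. Both genes that fell, Cyp39a1 and Cyp26b1, belonged to the genes that did not follow Alb. No following gene passed, although all 29 tested had higher estimates, with a median log2 change of 1.80 against 0.03 over all genes. The following genes were chosen for varying with Alb, so a direction they share, here and below, is not a set of separate observations. The medians were 0.31 for the 14 genes between and -0.38 for the 12 that did not follow. At an unadjusted p under 0.05 there were 16 of 55 P450 genes, against 16.0% of all genes, and with 1 library left out from 9 (in the dose experiment, without low dose replicate 3) to 31 (in the anti-PD1 experiment, without low dose replicate 3).

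Cyp39a1 (chromosome 17, 43667425 to 43751431), which hydroxylates oxysterols on the way to bile acids, had the lower mean in treated tumours of each experiment. In the dose experiment its CPM were 22.9, 18.8, 17.3 and 16.4 in vehicle against 9.75, 7.81 and 13.5 at the low dose. The DC-101 experiment gave 12.6, 17.1, 15.5 and 24.5 against 9.92, 5.59 and 11. The anti-PD1 experiment gave 16.9, 29.1 and 8.06 against 7.04, 10.6 and 7.05. The groups did not overlap in the first and second experiments and overlapped in the third, through vehicle replicate 3. The pooled log2 change was -0.99 (SE 0.21, edgeR adjusted p = 0.0200), with -0.86, -0.98 and -1.13 in the single experiments. With Alb as a covariate it was -1.02 (adjusted p = 0.0256). Cyp39a1 passed in 30 of 32 alternative fits, losing its call where the dose experiment or the DC-101 experiment was left out.

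Cyp26b1 (chromosome 6, 84571414 to 84593908), which clears retinoic acid, varied more between tumours. In the dose experiment its CPM were 26.7, 46.7, 42.4 and 34.5 in vehicle against 8.66, 6.21 and 14.3 at the low dose. The DC-101 experiment gave 81.0, 51.2 and 49.9 in vehicle replicates 2 to 4 and a higher value, 6.69 log2 CPM, in replicate 1, against 10.6, 59.3 and 29.4. The anti-PD1 experiment gave 64.6, 20.0 and 138 against 19.9, 1.53 and 17.5. Treated and vehicle tumours were apart in the first experiment, touched in the third at 19.9 and 20.0 CPM, and overlapped in the second. The pooled log2 change was -1.82 (SE 0.43, edgeR adjusted p = 0.0361), and -1.86 (adjusted p = 0.0457) with Alb as a covariate. The call held in 19 of 32 alternative fits, with adjusted p from 0.000493 to 0.3. The fibroblast list, with which Cyp26b1 varied, had 0 of 6 genes called and a median log2 change of -0.24, and its mean level was 9.15 to 10.40 in the vehicle and 8.37 to 10.29 in the low dose tumours. In the same comparison 3 of 5 endothelial genes fell and 1 of 8 macrophage genes rose, while 1.77% of all genes were called. The part of these cells in the changes of both genes was not tested.

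The count of P450 genes called over the 3 experiments was 1, with Cyp39a1 as the gene that passed, when any 1 of 10 tumours was left out. These were vehicle tumours 2 and 3 and treated tumours 1 and 2 in the dose experiment, vehicle tumours 1 and 2 and treated tumour 1 beside DC-101, and vehicle tumour 3 and treated tumours 1 and 3 beside anti-PD1. The count was 3 when vehicle tumour 2 beside anti-PD1 was left out. Cyp2s1, a P450 of epithelia, lay just short of the threshold, at -1.36 (SE 0.36, adjusted p = 0.0582). The next smallest p were further from it, with Cyp4a12a at 2.88 (SE 0.87, 0.0972), Cyp27b1 at 1.07 (SE 0.33, 0.105) and Cyp2c29 at 3.71 (SE 1.2, 0.116). With Alb as a covariate Cyp2c29, a drug and fatty acid epoxygenase, was at 2.62 with adjusted p = 0.0158.

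**Figure D3:**
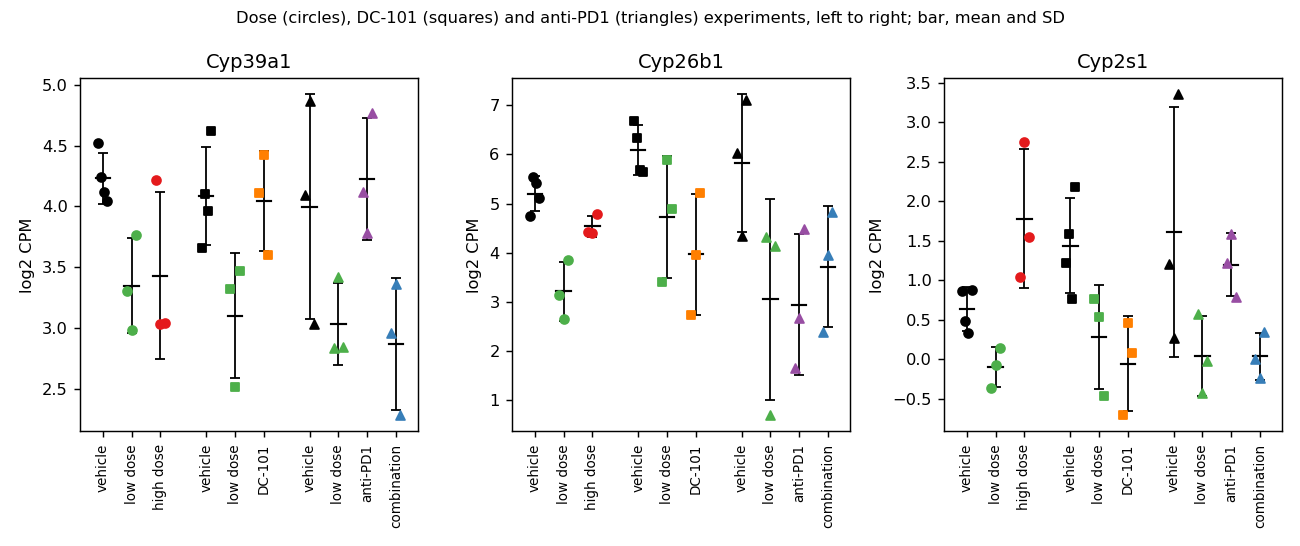
Log2 CPM of Cyp39a1, Cyp26b1 and Cyp2s1 (y axes) by group (x axes) in the experiments with the high dose (left), DC-101 (middle) and anti-PD1 (right); points are tumours, and bars are the mean and SD (n = 3 or 4). Low-dose tumours had lower means than vehicle for all 3 genes in each experiment, and for Cyp39a1 the DC-101 and anti-PD1 groups sat near vehicle.

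Whether the low-dose change differed among experiments was tested with an interaction term. No P450 gene passed (edgeR, 0.0% of all genes), with 18 of 55 at an unadjusted p under 0.05 against 9.52% of all genes, and none passed with DESeq2 or limma-voom. The smallest p were those of Cyp2c37 and Cyp26a1 (both adjusted p = 0.424). For Cyp39a1 and Cyp26b1 the adjusted p were 0.997 and 0.881. The 18 genes comprised 12 following genes, 6 between and none of the 12 that did not follow. With 1 library left out, the count of 18 ran from 7 (in the anti-PD1 experiment, without low dose replicate 1 or 3) to 33 (DC-101 experiment, vehicle replicate 3 left out).

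In the dose experiment alone, no P450 gene passed at the low dose (edgeR, 0.0% of 16525 genes). At an unadjusted p under 0.05 there were 7 of 60, against 4.94% of all genes, and 4 without vehicle replicate 2 or without low dose replicate 3; DESeq2 called 2 and limma-voom none. The smallest p were those of Cyp26b1, at -1.95 (SE 0.31, adjusted p = 0.268), and Cyp4a10, a fatty acid hydroxylase induced through Ppara, at 4.21 (SE 1.22, 0.795). Cyp4a10 was at 0.411, 0.114, 0.11 and 0.318 CPM in vehicle and at 0.559, 0.977 and 12.2 CPM at the low dose, so the third tumour made most of the difference.

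High-dose regorafenib gave the largest number of P450 calls. Against vehicle, 21 of 60 genes rose and 2 fell, while 15.6% of all 16525 genes were called, and 54 of 60 had an unadjusted p under 0.05 against 40.1% of all genes. The calls fell on 10 of 31 following genes, 8 of 17 between and 5 of 12 that did not follow, and the median log2 changes of these classes were 4.62, 3.61 and 0.58, against 0.02 over all genes. The 3 high-dose tumours were unlike each other in Alb, at 27900, 7040 and 1670 CPM. In the same comparison 3 of 22 hepatocyte, 2 of 5 bile duct, 2 of 4 T cell and 1 of 4 B cell genes rose, and 7 of 8 macrophage, 2 of 5 proliferation and 1 of 5 endothelial genes fell. Their part in the P450 changes was not tested.

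The 4 largest rises were those of Cyp2c37 (log2 change 7.30, SE 1.84, adjusted p = 0.0418), Cyp26a1 (6.48, SE 1.40, 0.0340), Cyp7a1 (6.48, SE 1.83, 0.0480) and Cyp2c38 (6.4, SE 1.78, 0.0467). Cyp2c37, an arachidonic acid hydroxylase, was at 0, 0.343, 0.0367 and 0.318 CPM in vehicle and at 66.6, 13.5 and 0.470 CPM at the high dose. Cyp26a1, the retinoic acid hydroxylase of liver, was at 0.288, 0.685, 0.991 and 1.27 against 196, 22 and 1.69 CPM. Cyp7a1, the rate-limiting enzyme of bile acid synthesis, was at 0, 1.09, 0.11 and 2.14 against 183, 37.4 and 2.16 CPM. Cyp2c38 was at 0, 0.628, 0.0367 and 1.51 against 105, 31.6 and 1.02 CPM. Cyp2e1 was at 22.1, 139, 44.7 and 259 against 12100, 2620 and 135 CPM (log2 change 5.41, SE 1.54, adjusted p = 0.0483). In each of these genes high dose replicates 1 and 2 stood far above vehicle, whereas replicate 3, the one with 1670 CPM of Alb, was just above the highest vehicle tumour for Cyp2c37, Cyp26a1 and Cyp7a1 and within the vehicle range for Cyp2c38 and Cyp2e1.

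All 3 high-dose tumours lay above the 4 vehicle tumours in 17 of 60 genes and below them in 3 (log2 CPM), which 11.6% and 16.2% of all 16525 genes did. The 4 genes described next were among them, and none followed Alb. Cyp46a1, which hydroxylates cholesterol and is best known from neurons, was at 0.988, 0.971, 0.734 and 0.516 CPM in vehicle, 1.22, 0.977 and 1.06 at the low dose and 3.57, 3.89 and 3.14 at the high dose, with no overlap. It rose by a log2 change of 2.14 (SE 0.29, edgeR adjusted p = 0.0148), and it was the only P450 gene called with Alb (2.19, adjusted p = 0.0437) or with the hepatocyte list as a covariate. Its counts were low, at 13 to 24 in vehicle and 63 to 106 at the high dose. Cyp20a1 fell from 35.7, 42.8, 36.8 and 37.8 CPM to 21.8, 26.9 and 29.2 (log2 change -0.56, SE 0.13, adjusted p = 0.0377). Cyp4f18 fell from 3.04, 8.97, 2.86 and 5.80 to 0.905, 1.94 and 1.96 CPM (-1.67, SE 0.49, adjusted p = 0.0489), while 0 of 4 neutrophil genes were called and that list lay at 2.86 to 4.82 in vehicle and 2.89 to 3.50 at the high dose. Cyp1b1 rose by 2.34 (SE 0.66, adjusted p = 0.0467) on 6.05, 13.1, 8.95 and 11.9 against 19, 115 and 18.2 CPM, with replicate 2 far above the other two high-dose tumours.

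The high-dose count depended on single tumours, most calls having adjusted p between 0.03 and 0.05. It was 0 without vehicle replicate 1, 3 or 4, 1 without vehicle replicate 2, and 1, 2 and 38 without low dose replicates 1, 2 and 3, which share the estimate of spread. It was 6, 2 and 53 without high dose replicates 1, 2 and 3. The calls over all genes, 2582 in the main fit, moved too. They were 38, 83, 15 and 26 without vehicle replicates 1 to 4, and 135, 284 and 2678 without low dose replicates 1 to 3. Without high dose replicates 1, 2 and 3 they were 956, 537 and 7030. The count of 54 at an unadjusted p under 0.05 became 24 without high dose replicate 1. With library totals in place of TMM scaling the median of all genes shifted from 0.02 to -0.13 and 4 P450 genes were called, all of them rises.

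Between the high and the low dose, 2 of 60 P450 genes rose, against 4.22% of all genes. They were Cyp46a1 (1.70, SE 0.31, adjusted p = 0.0256) and Cyp2s1 (2.14, SE 0.47, adjusted p = 0.0414), neither of which followed Alb. Cyp2s1 was at 0.699, 0.872 and 1.02 CPM at the low dose and at 1.98, 6.63 and 2.82 CPM at the high dose, without overlap. Beside these, 7 of 8 macrophage genes fell and 2 of 5 bile duct genes rose, and their part was not tested. All 31 following genes had higher estimates at the high dose, with a median of 2.74, and none passed. There were 21 of 60 at an unadjusted p under 0.05, against 29.3% of all genes, and from 12 (without low dose replicate 1 or 2 or high dose replicate 1) to 51 (without low dose replicate 3) with 1 library left out. The count of 2 became 20 without high dose replicate 3, 0 without vehicle replicate 3, low dose replicate 1 or 2 or high dose replicate 2, and 1 without vehicle replicate 1, 2 or 4 or low dose replicate 3. Over all genes the calls went from 697 to 4488 without high dose replicate 3. They were between 62 and 594 where any other tumour was left out.

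**Figure D4:**
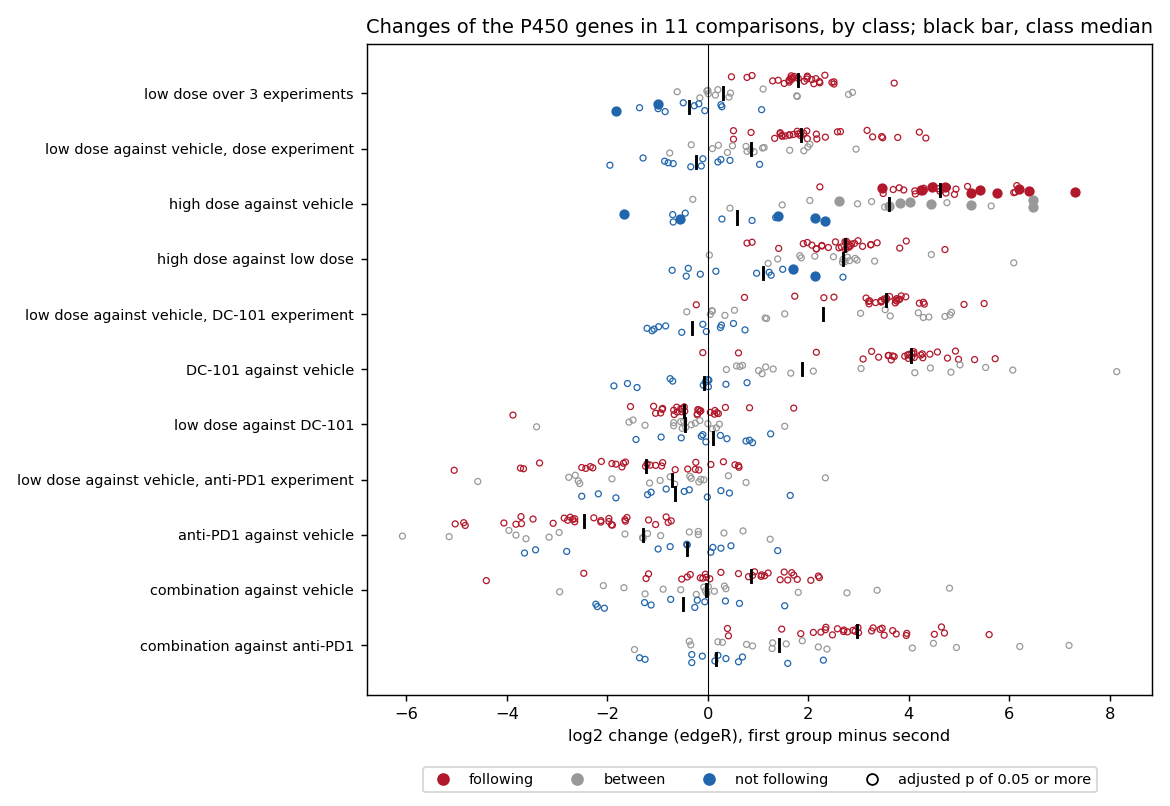
Log2 change from edgeR (x axis) of each tested P450 gene in 11 comparisons (y axis), coloured by class, with filled points for an adjusted p under 0.05 and black bars for class medians. Filled points occur in the comparison over 3 experiments and in both high-dose comparisons, and the medians of the following genes range from -2.46 to 4.62.

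In the DC-101 experiment no P450 gene passed in any of 3 comparisons. Against vehicle, the following genes had median log2 changes of 3.56 at the low dose and 4.03 with DC-101, and the 12 that did not follow had -0.31 and -0.07. These comparisons share the 4 vehicle tumours, 2 of which held almost no Alb. With edgeR 0.0248% of all 16138 genes were called at the low dose and 0.0% with DC-101. At an unadjusted p under 0.05 there were 15 of 60 P450 genes at the low dose, against 17.1% of all genes, and 25 of 60 with DC-101, against 13.2%. With 1 library left out, these counts ran from 5 (without low dose replicate 3) to 38 (without vehicle replicate 3) at the low dose and from 9 (without DC-101 replicate 3) to 46 (without DC-101 replicate 1) with DC-101. DESeq2 called 4 in each and limma-voom none.

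The smallest p with DC-101 were those of Cyp2a5, which oxidises coumarin and nicotine, at 4.84 (SE 1.23), and of Cyp2b10, the classical target of CAR, at 8.14 (SE 2.11), both with adjusted p = 0.309. Cyp2b10 was at 0, 0.0392, 0 and 0.0449 CPM in vehicle and at 0, 21.2 and 2.04 CPM with DC-101, so DC-101 replicate 2 made most of the difference, and its fitted change against so few counts sets no bound. At the low dose they were Cyp2a5, at 4.40 (SE 1.24, adjusted p = 0.153), and Cyp2r1, a vitamin D hydroxylase, at 3.04 (SE 0.93, 0.169). Between the low dose and DC-101 no gene passed (0.0% of all genes), 1 of 60 had an unadjusted p under 0.05 against 8.45% of all genes (7 without DC-101 replicate 3 and 0 without low dose or DC-101 replicate 2), and DESeq2 and limma-voom called none. That gene was Cyp39a1, at 9.92, 5.59 and 11 CPM at the low dose against 17.1, 21.4 and 12.0 with DC-101 (-0.93, SE 0.33, adjusted p = 0.499). The next smallest p was that of Cyp2c55 (-1.43, SE 0.69, adjusted p = 0.623).

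In the anti-PD1 experiment no P450 gene passed in any of 4 comparisons with edgeR, nor did any other gene (0.0%). The following genes had a median log2 change against vehicle of -1.22 at the low dose, -2.46 with anti-PD1 and 0.85 in the combination, and of 2.96 in the combination against anti-PD1. All 30 of them had lower estimates with anti-PD1 than with vehicle, and all 30 had higher estimates in the combination than with anti-PD1. Since they were chosen for varying with Alb, they are not 30 separate observations. These comparisons share the vehicle or the anti-PD1 tumours. At an unadjusted p under 0.05 there were 17 of 60 at the low dose (11.8% of all genes), 27 with anti-PD1 (13.7%), 8 in the combination (8.20%) and 33 for the combination against anti-PD1 (8.68%). With 1 library left out, the last count ran from 6 (without combination replicate 1) to 36 (without combination replicate 3), and the count with anti-PD1 from 17 (without anti-PD1 replicate 1) to 35 (without combination replicate 1). The low-dose count ran from 9 (without vehicle or low dose replicate 3) to 27 and the count for the combination against vehicle from 7 (without vehicle replicate 3) to 16, both highest without combination replicate 1. DESeq2 called 3, 13, 0 and 11, and limma-voom none. In the low-dose comparison of this experiment 25 of 30 following genes had lower estimates, whereas all 31 in the dose experiment and 29 of 30 in the DC-101 experiment had higher ones.

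With anti-PD1 the smallest p were those of Cyp26a1 (-3.62, SE 0.82) and Cyp1b1 (-3.65, SE 0.86), both with adjusted p = 0.249. Cyp1b1 was at 30.0, 26.7 and 113 CPM in vehicle and at 2.62, 1.11 and 9.79 CPM with anti-PD1, and the groups did not overlap. At the low dose they were Cyp2c39 (-3.73, SE 1.02, adjusted p = 0.248) and Cyp17a1, the hydroxylase and lyase of androgen synthesis (-5.05, SE 1.45, 0.261). In the combination against vehicle they were Cyp17a1 (-4.41, SE 1.39) and Cyp2s1 (-2.23, SE 0.70), both with adjusted p = 0.483. For the combination against anti-PD1 they were Cyp2e1 (3.68, SE 1.04) and Cyp2d10 (2.78, SE 0.81), both with adjusted p = 0.472. Cyp2e1 was at 22.6, 58.3 and 26.4 CPM with anti-PD1 and at 1090, 164 and 119 CPM in the combination, without overlap. With Alb as a covariate its estimate was 0.48.

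Genes that serve or control P450 enzymes were taken from a list of 8 redox and haem genes and 15 regulators. Of the regulators, Hnf4a (r = 0.96), Nr1i2 (0.95), Ppara (0.90), Nr1h4 (0.89), Nr5a2 (0.89), Nr1i3 (0.88) and Nr0b2 (0.78) varied with Alb as the following P450 genes did. Nr1h3 (0.65), Rxra (0.46) and Cebpa (0.39) lay between. The aryl hydrocarbon receptor gene Ahr (0.08), Srebf2 (0.11), Ahrr (-0.03), Arnt (-0.09) and Vdr (-0.21) did not follow. P450 reductase, Por, was at 0.44. At the low dose over 3 experiments 1 regulator fell, Ahr (-0.67, SE 0.16, edgeR adjusted p = 0.0366), which is 1 of 15 against 1.77% of all genes. No redox or haem gene passed there. At the high dose against vehicle 2 regulators rose, Ppara (4.29) and Cebpa (1.98), and 1 fell, the sterol regulator Srebf2 (-0.76). Of the redox and haem genes, cytochrome b5 (Cyb5a, 2.47) and adrenodoxin (Fdx1, 2.11) rose. The edgeR adjusted p of these 5 genes lay between 0.0470 and 0.0498. These calls were 3 of 15 regulators and 2 of 8 redox and haem genes, against 15.6% of all genes. Between the high and the low dose 1 redox or haem gene rose, the haem oxygenase Hmox1 (1.09, edgeR adjusted p = 0.0465), 1 of 8 against 4.22% of all genes. No gene of either list passed in the other comparisons.

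Tumours with much Alb did not all hold the same P450 pattern, which was examined after the values were seen and is given per 1000 counts of Alb without a test. Cyp4a12a, a fatty acid hydroxylase known to be higher in male mouse liver, stood at 7.73 in DC-101 replicate 3 and at 0.00749 in DC-101 replicate 2, although Alb was 9660 and 11800 CPM. Cyp2e1 was at 141 and 7.91 and Cyp7b1, an oxysterol hydroxylase also known to be higher in males, at 6.44 and 0.307 in the same order. Cyp17a1 ran the other way, at 0.0946 and 1.04, as did Cyp2b10, at 0.212 and 1.79.

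In the anti-PD1 experiment 3 of these genes were set side by side by group. Cyp4a12a was at 0.619, 0 and 0.102 per 1000 counts of Alb in the vehicle tumours, at 9.82, 3.45 and 3.05 at the low dose, at 1.21, 6.96 and 0.195 with anti-PD1 and at 18.5, 8.58 and 6.08 in the combination. Cyp17a1 was at 0.431, 3.54 and 0.598 in vehicle, at 0.406, 0 and 0.351 at the low dose, at 0, 0 and 0.584 with anti-PD1 and at 0.0581, 0.116 and 0.355 in the combination. Cyp2b10 was at 0.153, 1.93 and 0.233 in vehicle, at 0.108, 0.182 and 0 at the low dose, at 0.346, 0 and 0.162 with anti-PD1 and at 0.257, 0.0464 and 0.111 in the combination, and all 4 groups overlapped. Vehicle tumours were thus below the low dose and combination tumours for Cyp4a12a and above them for Cyp17a1, while the anti-PD1 tumours overlapped vehicle in both genes. In the dose experiment Cyp4a12a was at 2.7 to 11.8 in vehicle, 6.44 to 8.98 at the low dose and 8.25 to 22.4 at the high dose, and the groups overlapped. In the DC-101 experiment it was at 0.468 and 1.63 in vehicle replicates 2 and 3, at 9.77 and 4.08 in vehicle replicates 1 and 4, which held only 307 and 245 counts of Alb, and at 5.18, 10.3 and 5.45 at the low dose. Y-linked Ddx3y was at 8.99 to 68.5 CPM and Xist at no more than 0.309 CPM in all 32 tumours.

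**Figure D5:**
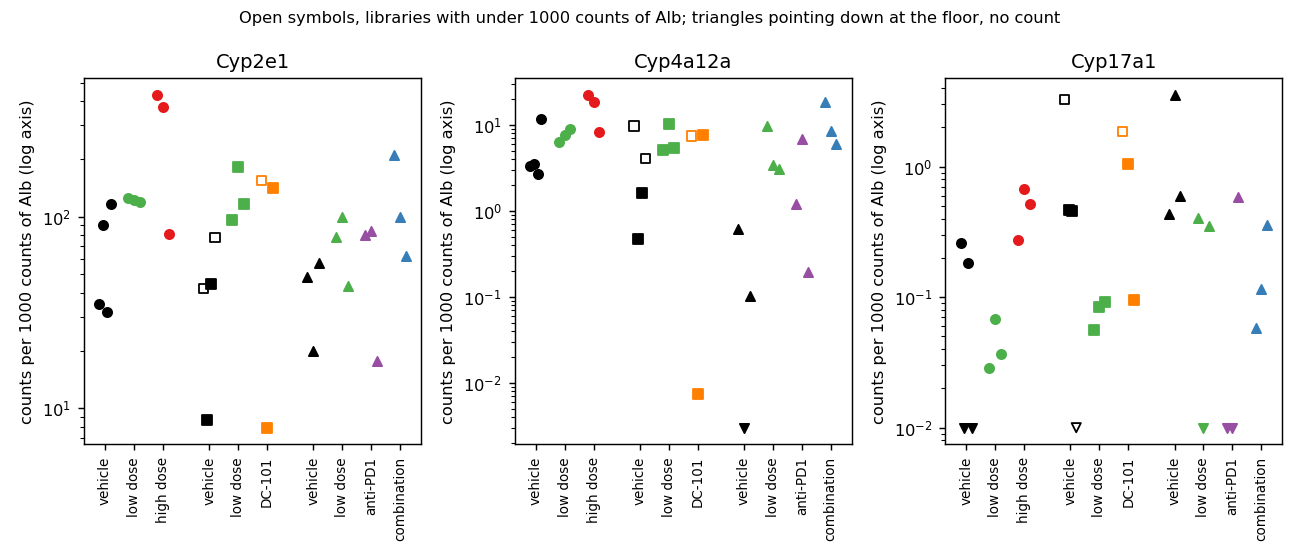
Counts of Cyp2e1, Cyp4a12a and Cyp17a1 per 1000 counts of Alb (log y axes) by group (x axes) in the dose (circles), DC-101 (squares) and anti-PD1 (triangles) experiments, 1 point per tumour; open points have under 1000 counts of Alb, and downward triangles at the floor have no count of the gene. DC-101 replicate 2 and the vehicle tumours of the anti-PD1 experiment stand low for Cyp4a12a, at 0.00749 and at 0 to 0.619, as do anti-PD1 replicate 3 (0.195) and, in the DC-101 experiment, vehicle replicate 2 (0.468).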

How the data were processed

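The deposited files hold raw read counts per gene, 1 table per experiment. The authors trimmed reads from a stranded mRNA kit with cutadapt 2.4 and counted them with STAR 2.7.2a on GRCm 38 and Gencode genes. The strand column they kept was not given in the sources used here, so members overlapping another gene (Cyp51 with Akap9, Cyp2s1 with Gm26707 and Cyp4f18 with Zfp961, among others) are less certain. Of 54446 gene IDs, 54409 matched Gencode M21. Members and gene lists were chosen with earlier results of these data known. Of the regulators first listed, 1 is not reported here.

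Counts were tested with edgeR 4.0.16 in R 4.3.3 (quasi-likelihood F-test, robust, 2-sided, TMM scaling, filterByExpr with a minimum count of 10 and total of 15, Benjamini-Hochberg over all genes tested, threshold 0.05), fitted over all groups of an experiment or, for the low dose, over all vehicle and low dose libraries with the experiment as a term. The labels call each experiment a batch, and levels set across experiments were scaled separately. Log2 CPM used a prior count of 2. List levels are the mean log2 CPM of their genes. DESeq2 1.42.0, limma-voom (limma 3.58.1), other scalings and filters, Alb or hepatocyte covariates, a replicate block and leaving out each library were alternatives. Scripts were tested on simulated data. Named genes were all members called where 8 or fewer passed, otherwise the 4 largest rises and falls, otherwise the 2 smallest p, the extremes of r to Alb, and a fixed panel. Others were chosen after their values were seen: Cyp2e1, Cyp1b1 and Cyp46a1 at the high dose against vehicle, genes near or next to the threshold and those given per albumin count. Labels do not say that replicates are separate animals, so p-values measure the spread between these samples.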

Additional observations from a re-analysis of the deposited data

Results flagged for a closer look

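Of 69 values in the groups of 4 vehicle tumours, 6 stood apart from the other 3 by Dixon's criterion, which chance meets in about 1 group in 20. In vehicle replicate 3 of the DC-101 experiment, the one of its group with the most Alb (2660 CPM), Cyp1a2 was at 1.16 log2 CPM, Cyp2c29 at 2.49, Cyp7a1 at -1.80 and Cyp8b1 at 2.51, while the next highest tumours of the group were at -2.87, -2.16, -3.44 and -2.88. In vehicle replicate 1 of the same experiment Cyp1b1 was at 5.18 log2 CPM, against 3.80 to 3.98 in the others. In vehicle replicate 4 of the dose experiment Cyp1a1 was at -2.64, which is 2 counts against 0 in the others.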

How the results depend on the processing

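With DESeq2 in place of edgeR, the number of P450 genes called was 7 at the low dose over 3 experiments, 2 at the low dose in the dose experiment, 51 at the high dose against vehicle, 17 between the doses, 4 at the low dose and 4 with DC-101 in the DC-101 experiment, and 3 at the low dose, 13 with anti-PD1 and 11 for the combination against anti-PD1. Calls over all genes with DESeq2 are not given here, so these counts and the DESeq2 counts above stand without a background. The 2 calls over 3 experiments became 1 with no filter, and 0 without the dose experiment or without the DC-101 experiment. The 23 calls at the high dose became 5 with limma-voom, 4 with total count scaling, 2 with no filter, 13 with at least 10 counts in every library, 1 with the hepatocyte list and 1 with Alb as a covariate. The 2 calls between the doses became 0 with total count scaling, 0 with no filter and 1 with the hepatocyte covariate. With the replicate block the calls became 0 at the high dose and 0 between the doses; same-numbered tumours deviated together (r over 0.1) in 2 of 9, 4 of 9 and 6 of 18 pairs in the experiments with the high dose, DC-101 and anti-PD1, so the numbers were not taken as pairs. With 1 library left out, calls ran from 1 to 3 over 3 experiments, from 0 to 53 at the high dose, from 0 to 20 between the doses and 0 elsewhere, and following genes from 27 to 35. Over all genes the first 3 of these ran from 158 to 313, from 15 to 7030 and from 62 to 4488. In the dose, the DC-101 and the anti-PD1 experiment alone 48, 40 and 26 genes followed Alb, and 22 and 42 did at r of at least 0.8 and 0.6. With the hepatocyte list in place of Alb 38 genes followed. The causes were not tested. Of 521 refits of 26 named changes, 392 kept side and direction, 119 no longer passed, 10 newly passed and 0 reversed.

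Low counts limit Cyp46a1, Cyp27b1 and Cyp2b10, among others, and 3 or 4 tumours a group limit every comparison. Vehicle tumours of the DC-101 experiment held 0 to 2 counts of Cyp2a5 and 1 to 3 of Cyp2r1. Vehicle tumours of the dose experiment held 0 to 8 counts of Cyp2c37.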
